A study of Mus musculus with 6 samples.

Results

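Transcripts of gap junction proteins, pannexins and their scaffold were followed in ECFP+ osteoblasts (OBs) by 7 genes, taken by symbol from the 23284 genes listed in each sample. They were the connexin genes *Gja1*, *Gjc1*, *Gja4* and *Gjb2*, the pannexin genes *Panx1* and *Panx3*, and *Tjp1*, which encodes the scaffold ZO-1. All 7 were listed in all 6 samples, and all 7 passed the filter for testing, a mean over the 6 samples above 0.1 FPKM (fragments counted relative to transcript length and to the size of the library, so a level per length).

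The OBs came from ectopic bone that BMP-2 had induced under the skin of *Col2.3*-ECFP mice, 3 samples on day 10 and 3 on day 14 after implantation. In this line a type I collagen promoter drives the cyan protein ECFP, so the sort takes cells in which that promoter is active. Both groups carried the same transgene and a collagen sponge with 2.5 μg of BMP-2, and the methods give male mice of 12 to 16 weeks. Cells stained for CD45 or for the dead-cell dye were gated out. Day 10 bone went through 1 collagenase digestion and day 14 bone through 2, a difference that cannot be told apart from the day. The titles call the samples biological replicates but do not say whether each was 1 mouse, and the descriptions of day 14 replicates 2 and 3 name day 15 and day 16.

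Depth was estimated from the steps between low FPKM values at 4558611 to 7789230 reads per sample. The 7 OB marker genes were above 0 in all 6 samples, with a summed level of 28368 to 54192 FPKM on day 10 and 15669 to 38269 FPKM on day 14. Day 14 replicate 2 stood apart from the other day 14 samples. It held the highest of the day 14 OB sums, and its sum over 10 cartilage genes was 2431 FPKM against 230 FPKM and 170 FPKM in replicates 1 and 3 of that day and 749 to 1561 FPKM on day 10. The log2 fold changes of the 7 genes were therefore also fitted without it.

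Gap junctions are channels that join the cytoplasm of neighbouring cells. Each connexin forms a ring in the membrane of its own cell, which docks with a ring of the next cell and lets ions and small signalling molecules pass. OBs and osteocytes are coupled mainly through connexin 43, the product of *Gja1*, and ZO-1 binds its tail and shapes the junctional plaque. Pannexins form large-pore channels that face the outside of the cell and release ATP, which in turn acts on P2 receptors. Pannexin 3 is known from bone and cartilage, whereas pannexin 1 is found in most tissues.

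In the RefSeq promoter table of GRCm38.p6, 5 of the 7 genes had an entry. The 250 bases before the start are shown for *Gja1*, the most abundant of the 7 genes, and for *Panx1*, the abundant gene with the higher mean on day 14, because these are the regulatory stretches nearest to the transcripts compared here. They lie at chr10:56377050-56377299 on the plus strand and chr9:15045479-15045728 on the minus strand, written 5′ to 3′. Capitals mark matches on either strand to 5 short motifs, namely the AP-1 site TGACTCA, the GC box GGGCGG, the RUNX core TGTGGT, the TATA box TATAAA and CCAAT.
*Gja1*: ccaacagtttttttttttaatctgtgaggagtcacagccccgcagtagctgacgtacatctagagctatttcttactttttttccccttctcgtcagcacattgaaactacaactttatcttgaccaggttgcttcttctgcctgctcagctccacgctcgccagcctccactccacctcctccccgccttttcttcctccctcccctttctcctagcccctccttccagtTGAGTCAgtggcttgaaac
*Panx1*: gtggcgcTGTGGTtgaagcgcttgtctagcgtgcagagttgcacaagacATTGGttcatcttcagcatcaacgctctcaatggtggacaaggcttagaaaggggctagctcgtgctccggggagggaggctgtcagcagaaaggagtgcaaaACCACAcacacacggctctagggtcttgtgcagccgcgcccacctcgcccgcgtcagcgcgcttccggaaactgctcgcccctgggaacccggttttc
The *Gja1* stretch held 1 match, an AP-1 site in reverse from 19 to 13 bases before the start, and 4.5% of all 32851 promoters in the table held that motif. The *Panx1* stretch held 2 RUNX cores, from 243 to 238 and from 98 to 93 bases before the start, and a CCAAT box in reverse. The RUNX core was found in 14.0% and the CCAAT box in 33.8% of all promoters. The stretches of *Tjp1* and *Gjb2* held 2 GC boxes each and that of *Gja4* held 1, a motif found in 32.7% of all promoters. The first entry of each gene was used. For *Tjp1* it lies at chr7:65371245-65371494 on the minus strand, inside the annotated gene, so it precedes an internal start. *Gjc1* and *Panx3* were not matched. A match is a description of letters and was not tied to binding of any factor.

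The levels of the 7 genes differed widely. *Gja1* was the highest on both days, at ranks 88 to 250 among all listed genes in single samples. *Panx3* followed on day 10 at ranks 260 to 539, then *Panx1*, *Tjp1* and *Gjc1*, with *Gja4* and *Gjb2* near the limit of detection. On day 10 the sample ranges of *Tjp1* and *Gjc1* overlapped, as did those of *Gja4* and *Gjb2*. On day 14 the ranges of *Panx3* and *Panx1* overlapped instead, as did those of *Gja4* and *Gjb2*, and *Gjc1* stood above *Tjp1* without overlap.

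**Figure D1:**
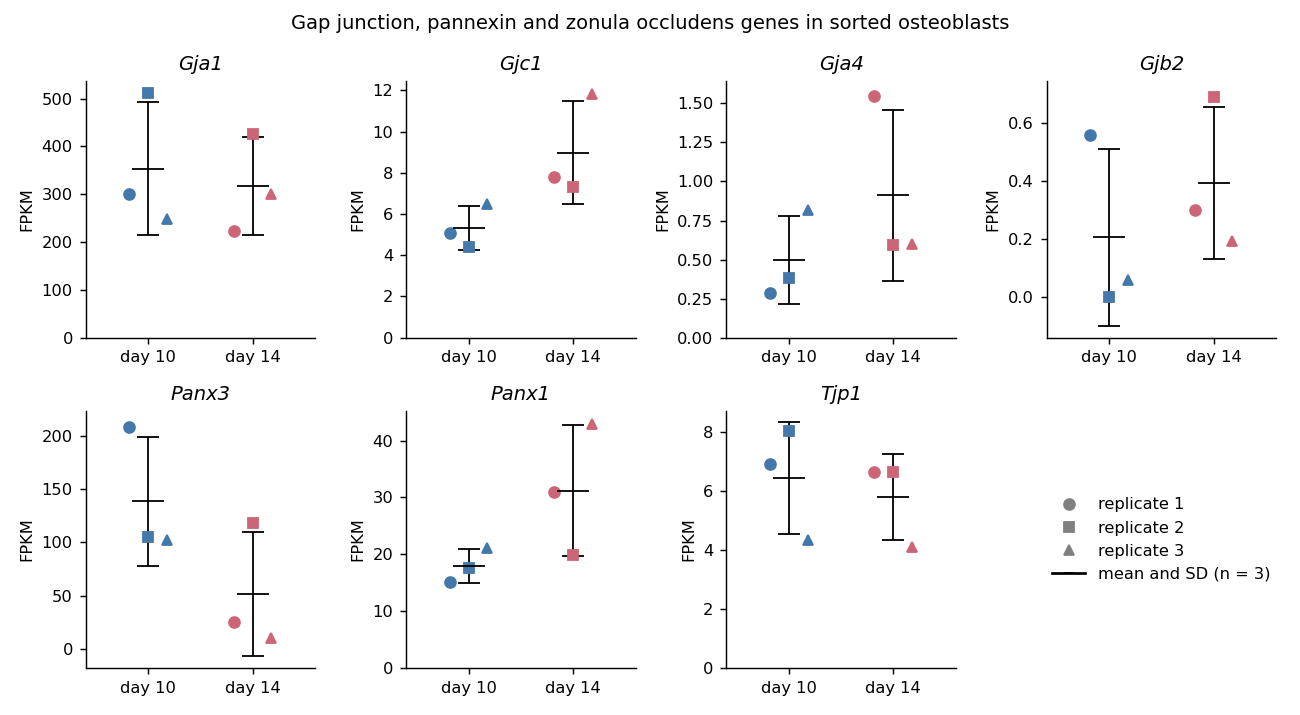
FPKM of the 7 genes in each sample on a linear axis, day 10 in blue and day 14 in red, with the marker shape giving the replicate number and black bars the mean and SD (n = 3). *Gjc1* was the gene whose days did not overlap, and for *Panx3* day 14 replicate 2 lay at 118 FPKM, among the day 10 samples, while the other day 14 samples were at 25.2 and 10.5 FPKM.

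Day 14 was compared with day 10 by limma on log2(FPKM + 0.1) over the 19526 genes that passed the filter. With all 6 samples, 0 of the 7 genes were past an adjusted p of 0.05 in limma, against 0.0154% of all genes tested, and 3 of the 7 had an unadjusted p under 0.05. These 3 were *Gjc1* and *Panx1*, with a higher mean on day 14, and *Panx3*, with a lower mean. Among all genes tested 10.0% had such an unadjusted p, 5.60% with a higher and 4.40% with a lower mean on day 14. Under an upper quartile scaling, 538 of 1915 such genes were higher in place of 1094 of 1954. The days did not overlap in 1 of the 7 genes, *Gjc1*, against 14.3% of all genes tested. The median log2 fold change of the 7 genes was 0.73, and that of all genes tested was −0.04. Of the 7 genes, 4 had a higher and 3 a lower mean log2 value on day 14. The 4 included *Gja4* and *Gjb2*, which were near the limit of detection, so the median does not show a rise of the set.

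**Figure D2:**
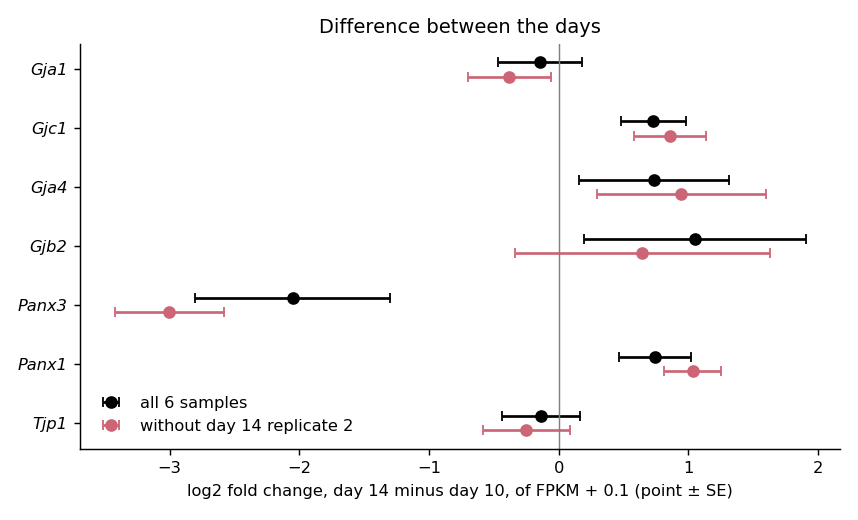
Log2 fold change (day 14 minus day 10, of FPKM + 0.1) with its standard error from limma for each of the 7 genes, with all 6 samples in black and without day 14 replicate 2 in red. *Panx3* lies at −2.05 with all samples and at −3.00 without that sample, and *Gja1* and *Tjp1* lie closest to 0.

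*Gja1*, on chromosome 10 from 56377330 to 56402513 in mm10, encodes connexin 43. Its level was 301, 511 and 249 FPKM in replicates 1, 2 and 3 of day 10 and 222, 426 and 301 FPKM in those of day 14. The days overlapped throughout, and the highest sample of each day was about as far above its lowest as on the other day, 2.06-fold on day 10 and 1.91-fold on day 14. The mean was 354 ± 139 FPKM (SD, n = 3) on day 10 and 316 ± 103 FPKM (SD, n = 3) on day 14. The log2 fold change of −0.14 (SE 0.32, adjusted p = 0.936 from limma) was smaller than its error, and its sign turned without day 10 replicate 2 (0.16) and without day 14 replicate 1 (0.09). It was −0.36 without day 10 replicate 3 and −0.38 without day 14 replicate 2. A difference between the days in *Gja1* was thus not detectable with these samples.

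*Gjc1* encodes connexin 45, a connexin that can share channels with connexin 43, and lies on chromosome 11 from 102799579 to 102819700. The day 10 samples held 5.07, 4.41 and 6.48 FPKM, and the day 14 samples 7.80, 7.31 and 11.8 FPKM. The lowest day 14 sample lay above the highest of day 10, in a direction in which 7.59% of all genes tested did not overlap. The means were 5.32 ± 1.06 FPKM and 8.98 ± 2.48 FPKM (SD, n = 3). The log2 fold change was 0.73 (SE 0.25, adjusted p = 0.400 from limma), and p was 0.1 by permutation (exact, two-sided), the lowest value possible with groups of 3. Without day 14 replicate 2 the log2 fold change was 0.86 (adjusted p = 0.227 from limma). Over the fits that lacked 1 sample it ran from 0.52 to 0.88. The lowest value was that without day 14 replicate 3 (adjusted p = 0.757 from limma) and the highest that without day 10 replicate 3.

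*Gja4* and *Gjb2* were close to the counting limit. *Gja4* (connexin 37, chromosome 4 from 127311421 to 127314039) is a connexin of blood vessel walls and *Gjb2* (connexin 26, chromosome 14 from 57098600 to 57104702) one of epithelia and the inner ear. Each has 1 annotated transcript, so FPKM could be turned into estimated reads. *Gja4* rested on about 2, 3 and 9 reads on day 10 and 10, 5 and 6 reads on day 14, which gave 0.288, 0.385 and 0.816 FPKM and then 1.54, 0.595 and 0.599 FPKM. *Gjb2* rested on about 6, 0 and 1 reads on day 10 and 3, 9 and 3 reads on day 14, that is 0.557, 0 and 0.0584 FPKM and then 0.299, 0.690 and 0.193 FPKM. Neither gene separated the days, and 3 reads or fewer were behind *Gja4* in 2 and *Gjb2* in 4 of the 6 samples. The zero of *Gjb2* in day 10 replicate 2 allows a level of up to 0.250 FPKM by counting error alone. The log2 fold change was 0.74 (SE 0.58, adjusted p = 0.748 from limma) for *Gja4* and 1.05 (SE 0.86, adjusted p = 0.762 from limma) for *Gjb2*. Single samples moved both values. That of *Gja4* was 0.48 without day 10 replicate 1, 0.33 without day 14 replicate 1 and 1.10 without day 10 replicate 3. That of *Gjb2* was 1.84 without day 10 replicate 1, 0.49 without day 10 replicate 2 and 0.65 without day 14 replicate 2. The value of *Gjb2* also followed the pseudocount, with 0.22 at a pseudocount of 1 and 2.27 at a pseudocount of 0.01.

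Marker genes of vessels and epithelium were set beside these levels. The 8 endothelial genes summed to 1.98 to 4.34 FPKM on day 10 and 5.33 to 10.2 FPKM on day 14, and all 8 had a higher mean on day 14. Of these, 3 were higher without overlap, against 7.59% of all genes tested. An unadjusted p from limma under 0.05 was found in 2, both higher, against 5.60%, and the smallest adjusted p was 0.374. *Pecam1*, which defines endothelium, was at 0.268 to 0.657 FPKM on day 10 and 0.720 to 1.35 FPKM on day 14. *Gja4* and the endothelial sum were both highest in day 14 replicate 1, and the part of vessel cells in the level of *Gja4* was not tested. The 9 mural and smooth muscle genes summed to 328 to 695 FPKM on day 10 and 490 to 589 FPKM on day 14, most of it from *Acta2*, and 5 of the 9 had a higher mean log2 level on day 14. *Pdgfrb*, a receptor of mural and other stromal cells, was at 40.5 to 66.6 FPKM on day 10 and 77.8 to 104.7 FPKM on day 14 without overlap, as was *Notch3* at 0.976 to 2.49 FPKM and 3.60 to 4.81 FPKM. These were the 2 of the 9 genes that were higher without overlap, as were 7.59% of all genes tested. *Cspg4*, *Kcnj8*, *Des* and *Myh11* went the other way with overlap, with log2 fold changes of −0.96, −0.43, −0.16 and −0.15. *Myh11*, which defines smooth muscle, was at 0.185 to 0.650 FPKM and *Rgs5*, a pericyte gene, at 0.255 to 1.502 FPKM. The 7 epithelial and keratinocyte genes summed to 1.10 to 3.38 FPKM. *Krt5*, *Krt8* and *Krt18* were at 0 in at least 4 of the 6 samples. *Krt14*, at 0.151 to 1.33 FPKM, and *Krt10*, at 0.676 to 1.25 FPKM, were above 0 in all 6.

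Summed over the 20 connexin genes listed, the level was 379 ± 135 FPKM (SD, n = 3) on day 10 and 357 ± 98.2 FPKM (SD, n = 3) on day 14. *Gja1* made up 93.0%, 95.9% and 88.8% of this sum on day 10 and 86.6%, 94.0% and 83.2% on day 14. It was thus the main connexin transcript in all 6 samples, at 25.4 to 116 times the level of *Gjc1*. The mean share was 92.6% ± 3.60 and 87.9% ± 5.52 (SD, n = 3), and the days overlapped (difference −4.63 percentage points, p = 0.3 by exact permutation, two-sided). The difference was −2.94 without day 10 replicate 2, −7.66 without day 14 replicate 2 and −2.25 without day 14 replicate 3. Of the 16 other connexin genes, 12 passed the filter, with an adjusted p from limma under 0.05 in 0 and an unadjusted p under 0.05 in 1. *Gjb1*, the connexin of liver and myelin, was at 0 in all samples.

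The most abundant of these other connexin genes was *Gjb5*, which encodes a connexin best known from skin and placenta. The day 10 samples held 5.86, 8.50 and 10.4 FPKM, and those of day 14 held 10.4, 6.19 and 22.4 FPKM. Its level was highest in day 14 replicate 3, and the days overlapped. The log2 fold change of 0.49 (adjusted p = 0.784 from limma) moved with single samples, to 0.26 without day 10 replicate 1, 0.92 without day 14 replicate 2 and −0.0018 without day 14 replicate 3. In every sample *Gjb5* alone stood above the summed level of the 7 epithelial genes, and the part of epithelial cells in its level was not tested.

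**Figure D3:**
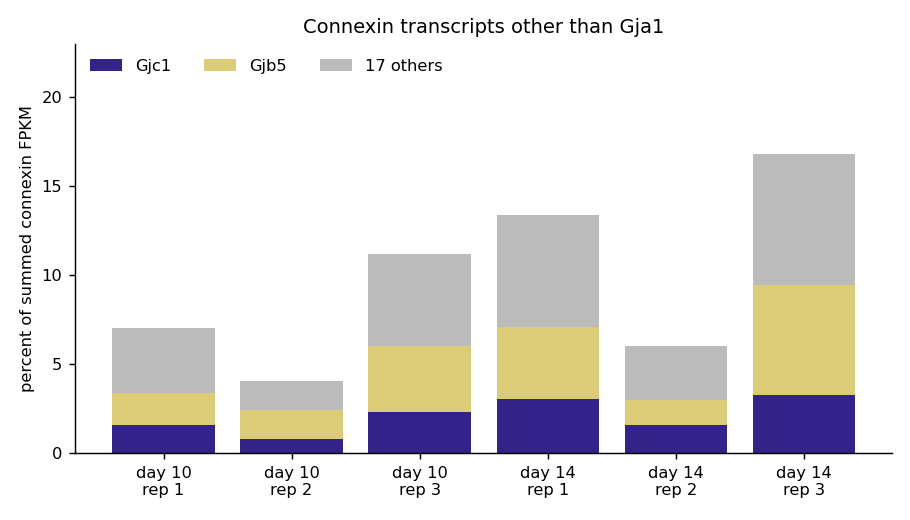
Share of the summed connexin FPKM, in percent, taken in each sample by connexin genes other than *Gja1*, as stacked bars for *Gjc1*, *Gjb5* and the 17 others together. The bars reach 4.06% to 11.2% on day 10 and 6.01% to 16.8% on day 14, with day 14 replicate 3 the highest.

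*Panx3* lies on chromosome 9 from 37659902 to 37669235. Its product is a pannexin of OBs and of maturing cartilage cells. Day 10 replicates 1 to 3 held 208, 105 and 103 FPKM, and those of day 14 held 25.2, 118 and 10.5 FPKM. The day 14 samples shared no common level, since replicate 2 was above replicates 2 and 3 of day 10 and the others were below every day 10 sample, and the highest was 11.3 times the lowest. The means were 139 ± 60.3 FPKM on day 10 and 51.3 ± 58.4 FPKM on day 14 (SD, n = 3). The log2 fold change was −2.05 (SE 0.75, adjusted p = 0.423 from limma), and the two-sided exact permutation test gave p = 0.3. Without day 14 replicate 2, *Panx3* fell by 3.003 on the log2 scale (SE 0.42, adjusted p = 0.0402 from limma), an 8.01-fold lower level, while 0.386% of all genes tested had such an adjusted p in that fit. That sample was left out because its OB and cartilage sums stood apart, and *Panx3* had a pattern near that of the OB marker *Ibsp*. The adjusted p of that fit is thus not an independent test. The log2 fold change of *Panx3* was −1.26 (adjusted p = 0.758 from limma) without day 14 replicate 3. The call was thus made only in the fit without day 14 replicate 2, among the 14 other settings tried.

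Genes of bone and cartilage matrix were set beside *Panx3*. *Ibsp*, the bone sialoprotein gene of mineralizing OBs, was at 25254, 15910 and 10072 FPKM on day 10 and 3460, 15632 and 1293 FPKM on day 14. *Col2a1*, the main collagen of cartilage, was at 373, 321 and 189 FPKM and then at 12.1, 688 and 8.75 FPKM. Both genes were low in the 2 day 14 samples in which *Panx3* was low, and day 14 replicate 2 held the highest *Col2a1* level of all. Other genes of these lists differed from *Panx3*. The OB gene *Bglap2* was at 317, 863 and 86.4 FPKM on day 10, where *Panx3* was highest in replicate 1, and the cartilage genes *Sox9* and *Matn3* had log2 fold changes of 0.08 and 0.19. The median log2 fold change was −1.69 over the 7 OB markers and −1.88 over the 10 cartilage genes, with 0 of 7 and 2 of 10 genes higher on day 14. Without day 14 replicate 2 the medians were −2.25 and −2.96. In bulk samples, fewer cells of a type and less RNA per cell cannot be told apart, and the part of cartilage cells in the level of *Panx3* was not tested.

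*Panx1*, on chromosome 9 from 15002128 to 15045478, had the opposite pattern. The samples of day 10 held 15.1, 17.6 and 21.0 FPKM, and those of day 14 held 30.9, 19.9 and 42.9 FPKM. Replicate 2 of day 14 was inside the day 10 range and the other day 14 samples were above it. The means were 17.9 ± 2.99 FPKM and 31.2 ± 11.5 FPKM (SD, n = 3), with a log2 fold change of 0.74 (SE 0.28, adjusted p = 0.430 from limma) and p = 0.2 by exact permutation (two-sided). Without day 14 replicate 2 the log2 fold change was 1.03 (SE 0.22, adjusted p = 0.102 from limma), and the days no longer overlapped. That sample held the lowest *Panx1* level of day 14, so the separation without it is not an independent result. The log2 fold change was 0.48 without day 14 replicate 3.

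The balance of the pannexins was followed within each sample, where it does not depend on scaling between samples. The level of *Panx3* was 13.8, 5.96 and 4.88 times that of *Panx1* on day 10 and 0.814, 5.96 and 0.244 times on day 14. *Panx3* was thus the more abundant pannexin transcript in 4 samples and *Panx1* in the other two, both of day 14. The mean log2 ratio was 2.88 ± 0.79 on day 10 and 0.08 ± 2.32 on day 14 (SD, n = 3), a difference of −2.79 (p = 0.3 by exact permutation, two-sided). It was −4.04 without day 14 replicate 2 and −1.74 without day 14 replicate 3. Without replicate 2 of day 14, p was 0.1 by exact permutation, the lowest value possible with 3 samples against 2. That sample was left out for its OB and cartilage sums and held the highest ratio of day 14. The p without it is thus not an independent test. *Panx2*, the third pannexin gene, was above 0 in 1 sample only, at 0.0526 FPKM.

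**Figure D4:**
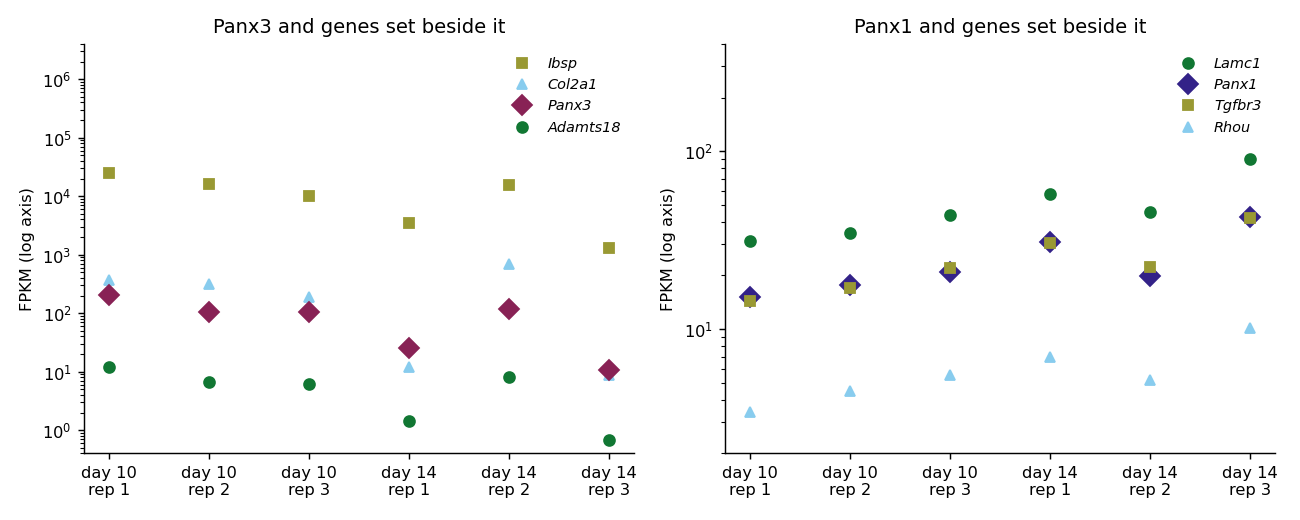
FPKM per sample on a log axis of *Panx3* beside *Ibsp*, *Col2a1* and *Adamts18* (left) and of *Panx1* beside *Lamc1*, *Tgfbr3* and *Rhou* (right), with 1 point per gene and sample. *Panx3* and the genes beside it are low in day 14 replicates 1 and 3 and within or above their day 10 range in replicate 2, and *Panx1* is highest in day 14 replicate 3 at 42.9 FPKM.

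*Tjp1*, on chromosome 7 from 65296165 to 65527781, encodes ZO-1, which links connexin 43 and tight junction proteins to actin. Its level was 6.93, 8.02 and 4.34 FPKM in the day 10 samples and 6.63, 6.63 and 4.11 FPKM in the day 14 samples. Replicate 3 was the lowest sample of each day, and the days overlapped. The means were 6.43 ± 1.89 FPKM and 5.79 ± 1.46 FPKM (SD, n = 3), and the log2 fold change was −0.14 (SE 0.30, adjusted p = 0.934 from limma), with a sign that turned without day 10 replicate 2 (0.04) and without day 14 replicate 3 (0.09). It was −0.39 without day 10 replicate 3, and −0.25 without day 14 replicate 1 or replicate 2. The level of *Gja1* was 43.4, 63.7 and 57.3 times that of *Tjp1* on day 10 and 33.5, 64.2 and 73.2 times on day 14. The log2 ratio was 5.74 ± 0.29 and 5.73 ± 0.60 (SD, n = 3), a difference of −0.01 (p = 1 by exact permutation, two-sided).

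Of 22 other tight junction genes, 18 passed the filter, with an adjusted p from limma under 0.05 in 0 and an unadjusted p under 0.05 in 1. The highest of them was the claudin gene *Cldn10*, at 18.8 to 40.1 FPKM on day 10 and 18.7 to 34.7 FPKM on day 14, followed by the adhesion gene *Jam3*, at 12.04 to 18.1 FPKM and 18.9 to 22.0 FPKM. The claudins of epithelium *Cldn3*, *Cldn4* and *Cldn7* had means under 0.5 FPKM on each day, *Tjp3* was at 0 in all samples, and the median log2 fold change of the list was 0.02.

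The 18 partners and regulators of connexin 43 were all listed and tested, with an adjusted p from limma under 0.05 in 0 and an unadjusted p under 0.05 in 2. The highest levels were those of *Nedd4*, a ubiquitin ligase that removes connexin 43 from the membrane (167 ± 18.9 FPKM on day 10 and 189 ± 9.75 FPKM on day 14, SD, n = 3), of *Nov*, a matricellular gene whose product binds its tail, and of *Ctnnb1*, which encodes β-catenin. *Nov* was at 65.3, 106 and 201 FPKM on day 10 and 172, 155 and 364 FPKM on day 14, with overlap. *Ezr*, the gene of the membrane linker ezrin, was at 16.6 to 18.9 FPKM on day 10 and 19.3 to 47.8 FPKM on day 14 without overlap (log2 fold change 0.73, adjusted p = 0.465 from limma, and 0.38 without day 14 replicate 3). *Cnst*, which encodes the connexin trafficking protein consortin, was at 5.35 to 7.20 FPKM and 2.87 to 5.20 FPKM without overlap (log2 fold change −0.67, adjusted p = 0.460 from limma). *Ezr* and *Cnst* were the genes with an unadjusted p under 0.05, near the share of 10.0% among all genes tested. Without overlap, 1 gene of the list was higher on day 14 and 3 were lower, namely *Cnst*, *Tsg101* and *Akap9*. Among all genes tested 7.59% were higher and 6.67% lower without overlap. The median log2 fold change of the list was 0.08.

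Routes of ATP release other than pannexins were measured by 9 listed genes, of which 8 were tested, with an adjusted p from limma under 0.05 in 0 and an unadjusted p under 0.05 in 1. *Slc17a9*, the transporter that fills vesicles with ATP, was at 19.8, 7.94 and 8.06 FPKM on day 10 and 2.198, 5.08 and 1.35 FPKM on day 14. The days did not overlap, with a log2 fold change of −2.08 (SE 0.51, adjusted p = 0.305 from limma), in a direction in which 6.67% of all genes tested did not overlap. It was the gene with an unadjusted p under 0.05, and the median log2 fold change of the list was 0.05. *Lrrc8a*, the core subunit of volume-regulated anion channels, was at 11.7 to 13.7 FPKM and 11.02 to 15.6 FPKM, and *Vdac1*, a channel of the outer mitochondrial membrane, at 43.8 to 47.8 FPKM and 34.5 to 48.3 FPKM.

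Of 19 receptors for extracellular nucleotides and adenosine, 18 were tested, with an adjusted p from limma under 0.05 in 0 and an unadjusted p under 0.05 in 2, near the share of 10.0% among all genes tested. *P2rx4*, an ATP-gated cation channel, was the highest, at 23.4, 30.2 and 27.9 FPKM on day 10 and 55.5, 33.1 and 44.3 FPKM on day 14, without overlap (log2 fold change 0.68, SE 0.21, adjusted p = 0.360 from limma). *P2rx7*, the ATP receptor often described together with pannexin 1, was at 1.64, 1.70 and 1.28 FPKM and then 6.66, 3.52 and 1.93 FPKM, also without overlap (log2 fold change 1.17, SE 0.44, adjusted p = 0.432 from limma, and 0.73 without day 14 replicate 1). They were the genes with an unadjusted p under 0.05, and 13 of the 18 had a higher mean log2 level on day 14. The median log2 fold change of the list was 0.60. It was 0.36 without day 10 replicate 1, 0.29 without day 14 replicate 1 and 0.30 without day 14 replicate 3, and under the upper quartile scaling it was 0.47 with 0 genes at such a p. *Adora2b* and *P2ry2*, the adenosine and nucleotide receptors next in level, overlapped between the days and were highest in day 14 replicate 3, at 22.9 and 13.5 FPKM. The 6 listed myeloid genes summed to 29.1 to 116 FPKM on day 10 and to 206, 11.5 and 526 FPKM on day 14. Most of this sum came from *Lyz2* in every sample, and no gene of the 6 separated the days. The part of myeloid cells in the receptor levels was not tested. *Ptprc*, which encodes CD45, was at 0.134 to 2.99 FPKM.

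Enzymes that break down extracellular nucleotides formed a list of 9 tested genes. The adjusted p from limma was under 0.05 in 0 of them and the unadjusted p in 4, with 3 higher and 1 lower on day 14, where 5.60% and 4.40% of all genes tested were. With no filter or no mean-variance trend these counts were 2 and 0. *Enpp2*, better known as autotaxin for making lysophosphatidic acid, was at 28.6, 28.0 and 35.5 FPKM on day 10 and 154, 55.2 and 64.4 FPKM on day 14 (log2 fold change 1.42, SE 0.35, adjusted p = 0.305 from limma). *Entpd3*, an ecto-nucleotidase that hydrolyses ATP, was at 72.5, 56.2 and 25.4 FPKM and then 13.4, 30.3 and 2.09 FPKM (log2 fold change −2.29, SE 0.85, adjusted p = 0.430 from limma). It was −3.11 (adjusted p = 0.128 from limma) without day 14 replicate 2 and −1.22 without day 14 replicate 3. *Nt5e*, which encodes CD73 and makes adenosine, was at 68.8, 99.8 and 31.6 FPKM and then 20.0, 132 and 15.9 FPKM, with a log2 fold change of −0.79 (adjusted p = 0.801 from limma) that was −1.75 (adjusted p = 0.137 from limma) without day 14 replicate 2 and −0.23 without day 14 replicate 3. In both of the latter genes the day 14 sample with the highest level was replicate 2, as in *Panx3*. The median log2 fold change of the list was 0.58. Over the other settings it ran from 0.34, without day 10 replicate 2, to 0.88, without day 14 replicate 2. Under the upper quartile scaling it was 0.44.

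Genes with the pattern nearest to each of the 5 members with a mean of at least 1 FPKM were sought among 11161 genes of such a mean, by the root mean square difference of log2(FPKM + 0.1) over the 6 samples after centring each gene on its own mean. These are the best of many genes and are given as a description. The genes nearest to *Panx3* were *Adamts18* (difference 0.12), *Ibsp* (0.19) and the sodium-calcium exchanger gene *Slc8a3* (0.25). *Adamts18*, a secreted protease, was at 11.8, 6.61 and 6.21 FPKM on day 10 and 1.41, 8.12 and 0.670 FPKM on day 14. The genes nearest to *Panx1* were *Tgfbr3* (0.08), the laminin chain gene *Lamc1* (0.09) and *Rhou* (0.09). Those nearest to *Gja1* were the growth factor gene *Pdgfd* (0.10), *2410018M08Rik* (0.12) and *Zfp385b* (0.13). *Rarb* (0.05), *Hspa12a* (0.07) and *Eea1* (0.08) were nearest to *Gjc1*, and *Hyal1* (0.08), *Pink1* (0.10) and *Alkbh8* (0.10) to *Tjp1*.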

How the data were processed

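RNA-seq values of ECFP+ OBs from day 10 (n = 3) and day 14 (n = 3) were used. The authors aligned single-end reads of 75 bases against mm10 using TopHat2 2.0.13, Bowtie2 2.2.3 and SAMtools 0.1.19 and deposited FPKM per gene and sample from Cufflinks 2.2.1. Their gene annotation and how they treated multiply mapping reads are not given in the sources used here. In day 14 replicate 2, 25 symbols read as dates and were restored by position.

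limma 3.58.1 in R 4.3.3 (mean-variance trend) was run on log2(FPKM + 0.1) for genes with a mean above 0.1 FPKM, with the day as the only factor and Benjamini-Hochberg adjustment over all 19526 genes. Fold changes are those of FPKM + 0.1 and understate changes of low genes. Members were compared in addition by exact permutation tests (two-sided), and the limma step was tested on simulated data. p-values measure the spread between these samples, which may be technical.

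Reads were estimated from low values (up to 0.3 FPKM) of 1977 genes with 1 GENCODE vM21 transcript of 1500 to 8000 bases, with 220 bases, the best value of a scan, as fragment length. Between 74.7% and 79.7% of these values were within 0.1 of a whole number of reads. Estimates and floors of 3 reads cover counting error only. Coordinates are those of GENCODE vM21 on mm10 and count from 1, and promoter sequences are from RefSeq (GRCm38.p6).

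Genes named beside the members are the 3 highest of each list (mean of 1 FPKM or more) and up to 4 per list with separated days and an unadjusted p under 0.05. *Gjb1*, *Panx2*, *Tjp3*, *Cldn3*, *Cldn4*, *Cldn7* and the cell type markers were named after their values were seen. Some genes that this rule names are not reported here. The members and lists were chosen with earlier results of these data known. Alternatives were other pseudocounts, filters and scalings, no trend, the replicate number as a block, and each sample left out in turn.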

Additional observations from a re-analysis of the deposited data

How the results depend on the processing

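The 7 genes were fitted again under up to 14 other settings. *Gjc1*, *Gja4*, *Gjb2*, *Panx1* and *Panx3* kept their direction in every setting in which they were tested. Over the fits that lacked 1 sample, the log2 fold change ran from −0.38 to 0.16 for *Gja1*, −0.39 to 0.09 for *Tjp1* (0.0891 without day 14 replicate 3) and −3.00 to −1.26 for *Panx3*, whose adjusted p from limma was between 0.0402 and 0.997. The difference in the log2 ratio of *Gja1* to *Tjp1* ran from −0.22 to 0.34. The number of genes past an adjusted p of 0.05 in limma, 3 with all samples, ran from 3 to 76 and was 76 without day 14 replicate 2. It was 5 without day 10 replicate 2, and 6 without day 10 replicate 3 or day 14 replicate 1. The unadjusted p was under 0.05 in 10 of the 14 settings for *Gjc1*, 7 for *Panx1* and 9 for *Panx3*. Under the upper quartile scaling the median log2 fold change of all genes moved by −0.11, and *Gjc1* was then at 0.60, *Panx1* at 0.61 and *Panx3* at −2.18. The causes of these shifts were not tested. With the filter at a mean of 1 FPKM, *Gja4* and *Gjb2* were no longer tested.

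The labels number the replicates on both days but do not say that a number links samples. Across genes, samples of the same number deviated from their days with correlations of 0.058, −0.00584 and 0.0887. A replicate block left 2 genes past an adjusted p of 0.05 in limma, and *Panx3* stood at −2.05 (adjusted p = 0.318). It changed no call among the 7 genes. Depth limits *Gja4* and *Gjb2*, which rested on at most 10 estimated reads in any sample.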
